A study of Mus musculus with 8 samples.

Results

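T cell identity genes were followed in MOPC tumours: Cd3d, Cd3e, Cd3g, Cd4, Cd8a, Cd8b1, Lck, Cd28, Icos and Foxp3, 10 genes listed by name. They were found through the gene symbols of the array's annotation, and for each of 18194 genes, these included, the probe set of greatest mean signal stood for the gene. Probe sets, groups of short probes against 1 transcript, were found for 9 of the 10 genes, 17 probe sets in all. Lck, the kinase that starts T cell receptor signalling, was not analysed here, because no probe set carried its symbol.

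MOPC is a mouse oropharyngeal carcinoma line that was injected under the skin of C57BL/6 mice, and whole tumours were taken for RNA. The 4 groups, with 2 arrays each, were tumours of Tlr3/7/9-/- (KO) hosts at day 6, of WT hosts at day 6, of KO hosts at day 4 and of WT hosts at day 4 after injection. KO hosts lacked Toll-like receptors 3, 7 and 9 in all their cells, whereas the same unmodified MOPC cells were used in both genotypes. The study used male and female mice, and the hosts of the day 6 tumours were young adults over a range of ages. For day 4, the sources used here give neither an age of these hosts in particular nor whether both samples of a group are from different mice. P-values therefore measure the spread between samples, which may be technical. In RNA of whole tumours, fewer T cells and less RNA per T cell cannot be told apart.

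Mature T cells recognise antigen through a receptor whose variable chains are held at the surface by the CD3 proteins. CD4 marks helper cells, and CD8, a dimer of an alpha and a beta chain, marks cytotoxic cells, while the kinase LCK, bound to either, phosphorylates the CD3 tails. CD28 gives the second signal that a naive T cell needs, ICOS is a related receptor that appears after activation, and FOXP3 is the transcription factor of regulatory T cells. Cd4 is also transcribed in some myeloid cells and Cd8a in a subset of dendritic cells, so that neither gene marks T cells alone.

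The labels held up for the targeted genes in part. For Tlr7, which senses single-stranded RNA, signals were 80.1 and 10.8 in KO and 471.3 and 466.1 in WT tumours at day 6, and 70.0 and 25.2 in KO and 382.9 and 673.4 in WT tumours at day 4. Tlr3, the receptor for double-stranded RNA, was also lower on every KO array, with 224.0 to 427.2 in KO and 543.9 to 811.1 in WT tumours, whereas Tlr9, the receptor for CpG DNA, had 84.2 to 128.5 in KO and 20.8 to 137.6 in WT tumours. In WT tumours Tlr9 was under the background defined below except in WT day 4 replicate 1 (137.6 against 135.7). The 2 dimmer Tlr7 probe sets overlapped between the genotypes at day 6. At day 4 both were higher in KO, with 104.3 and 144.9 against 96.2 and 68.2, and 212.9 and 131.4 against 33.3 and 94.4. Where a probe set lies outside the deleted sequence, it says nothing of the genotype. Signals of skeletal muscle and skin set some arrays apart. Acta1, the actin of skeletal muscle, reached 22022.4 in KO day 6 replicate 2, 9824.4 in KO day 4 replicate 2 and 34991.8 in WT day 4 replicate 2, against 336.4 to 652.8 on the other 5 arrays. Krt10, a keratin of the epidermis, was 9762.5 in KO day 6 replicate 2 and 467.9 to 599.4 elsewhere. Xist, transcribed from the inactive X chromosome of females, was 5579.1 to 7121.0 at day 6 and 44.6 to 142.1 at day 4, and Y-linked Eif2s3y ran the other way, so that the day and the sex of the host cannot be told apart.

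To judge whether a signal was above background, it was set against olfactory receptor genes, which a tumour has no use for. The background of an array was the 95th percentile of the brightest probe sets of 39 such genes, and it lay between 78.5 and 135.7. Signals are in the linear units of the MAS5 algorithm, in which the trimmed mean of every array was 1000 and the median 133.2 to 175.2. Cd4 and Cd8b1 were at or below background on all 8 arrays and Cd3e on 7 of 8. Cd3d, Icos and Foxp3 were above it on 5 arrays each, Cd3g on 6, and Cd8a and Cd28 on 7. By array, 7 and 5 of the 9 genes were above background in KO and 6 and 6 in WT tumours at day 6, against 4 and 4 in KO and 0 and 4 in WT tumours at day 4. WT day 4 replicate 1, the array with 0, also had the highest background. At the 90th percentile of the olfactory genes, Cd3d and Cd28 were above background on 8 arrays, Cd3g, Icos and Foxp3 on 6, and Cd8a on 7. Cd3e, Cd4 and Cd8b1 kept their counts. WT day 4 replicate 1 was then above it for Cd3d and Cd28. Elsewhere in the text, background means the 95th percentile, and the bounds on folds depend on that choice.

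**Figure D1:**
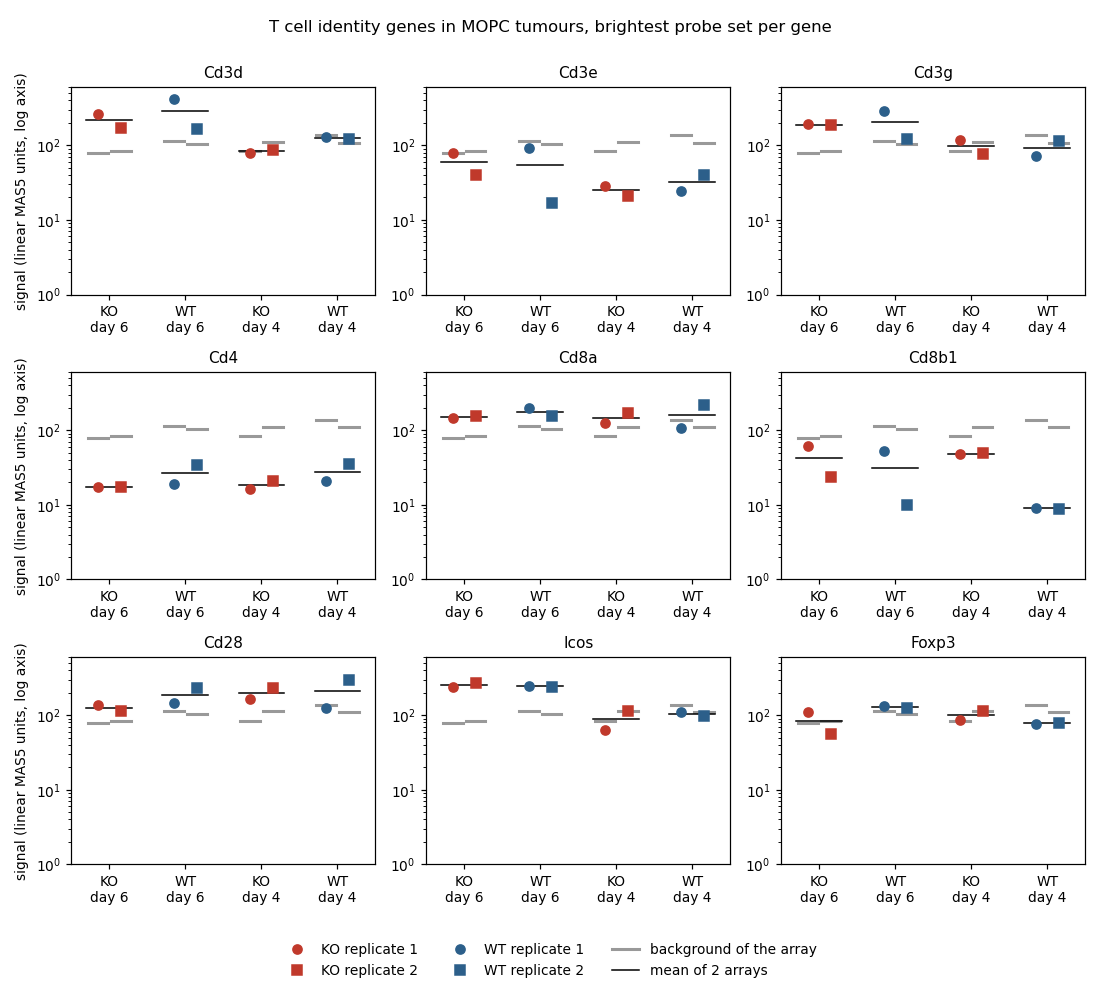
Signal of 9 T cell identity genes on every array (linear MAS5 units, logarithmic axis), with KO in red and WT in blue, the mean of 2 arrays as a black line and each array's background as a grey line. Icos, Cd3d and Cd3g lie above background on all 4 arrays of day 6, and Cd4 and Cd8b1 lie under it on all 8 arrays.

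The 3 CD3 genes lie together on chromosome 9. Cd3d and Cd3g are transcribed away from each other, from start sites 1355 bases apart, and Cd3e starts 27825 bases from Cd3d. The 250 bases before each start are shown, as 3 separate stretches. They are RefSeq sequences of the assembly GRCm38.p6 read 5′ to 3′ on the gene's strand: chr9:44981536-44981785 on the plus strand for Cd3d, chr9:44980432-44980681 on the minus strand for Cd3g and chr9:45009612-45009861 on the minus strand for Cd3e. Capitals mark 2 motifs, searched on both strands after the sequences had been read: CAGGTG or CACCTG, an E box that E proteins of lymphocytes bind, and ACTTCC or GGAAGT, the core of sites of the ETS family.
Cd3d: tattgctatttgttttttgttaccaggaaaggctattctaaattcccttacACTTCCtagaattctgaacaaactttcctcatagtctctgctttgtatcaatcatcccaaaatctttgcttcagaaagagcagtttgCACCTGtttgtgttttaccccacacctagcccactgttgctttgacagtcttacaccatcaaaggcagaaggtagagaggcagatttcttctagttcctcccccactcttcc
Cd3g: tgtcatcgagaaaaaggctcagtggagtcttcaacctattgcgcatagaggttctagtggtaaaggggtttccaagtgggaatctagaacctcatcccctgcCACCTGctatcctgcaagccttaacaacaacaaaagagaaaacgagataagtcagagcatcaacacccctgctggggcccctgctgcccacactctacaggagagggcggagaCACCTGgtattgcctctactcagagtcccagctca
Cd3e: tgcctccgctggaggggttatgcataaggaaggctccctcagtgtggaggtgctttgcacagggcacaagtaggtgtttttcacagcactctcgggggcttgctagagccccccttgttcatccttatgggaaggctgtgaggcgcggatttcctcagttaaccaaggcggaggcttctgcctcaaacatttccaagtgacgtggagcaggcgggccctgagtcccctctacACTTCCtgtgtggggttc
The Cd3g stretch held 2 E boxes, the Cd3d stretch 1 E box and 1 ETS motif, and the Cd3e stretch 1 ETS motif, and no marked run overlapped another. Among 32851 promoter stretches of this length, 17.2% held the E box and 19.7% the ETS motif. A match is only a match of letters. Promoters were found for 6 of the 10 genes (Cd3d, Cd3e, Cd3g, Cd8a, Lck and Foxp3).

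Cd3d, the delta chain of the CD3 complex, had signals of 263.2 and 170.3 in KO and 421.5 and 164.0 in WT tumours at day 6, against 79.9 and 86.1 in KO and 130.8 and 122.8 in WT tumours at day 4. All 4 arrays of day 6 were above all 4 of day 4, and within day 6 the genotypes overlapped. Day 6 exceeded day 4 on the log2 scale by 1.20 in KO hosts (95% interval 0.18 to 2.23, adjusted p = 0.175 from limma) and by 0.98 in WT hosts (95% interval -0.05 to 2.0, adjusted p = 0.275), neither of which passed. Both KO arrays of day 4 were below background, so in KO hosts the mean of the day 6 arrays was at least 2.18-fold higher. This bound puts each day 4 array at its background and leaves out the spread between arrays, which the interval gives. It rests on the 95th percentile, since both KO arrays of day 4 exceeded the 90th percentile of the olfactory genes (73.2 and 84.2). Log2 fold changes are fitted values, given on the log2(signal + 16) scale, which understates the change of dim genes, and adjusted p-values were taken over all 18194 genes.

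Cd3g, the gamma chain, had signals of 191.1 and 188.0 in KO and 284.4 and 121.5 in WT tumours at day 6, against 117.4 and 77.0 in KO and 72.4 and 113.9 in WT tumours at day 4. Here too the days did not overlap, although the lowest array of day 6 (121.5) was close to the highest of day 4 (117.4). On the log2 scale, day 6 over day 4 came to 0.88 in KO and 0.92 in WT hosts (standard error 0.45 each, adjusted p = 0.306 and 0.301 from limma). WT day 6 replicate 1 was the highest array of both genes, and without it the difference of day 6 from day 4 in WT hosts came to 0.33 for Cd3d and 0.36 for Cd3g. Over the 8 arrays the log2 signals of Cd3d and Cd3g had a Pearson correlation of 0.85, which is given as a description, since the arrays share the day.

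Cd3e, the epsilon chain, which pairs with both other chains, had 78.8 and 40.4 in KO and 91.3 and 16.7 in WT tumours at day 6, against 28.8 and 20.9 in KO and 24.6 and 39.8 in WT tumours at day 4. The only array above its own background was KO day 6 replicate 1, by less than 1 unit of signal. No fold change is given for values this close to background.

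Icos had the smallest p of the 9 genes between the days. Its brightest probe set had signals of 241.1 and 271.6 in KO and 249.3 and 235.1 in WT tumours at day 6, against 63.2 and 113.0 in KO and 110.7 and 97.2 in WT tumours at day 4. The lowest array of day 6 was more than 100 units above the highest of day 4, and the genotypes overlapped at each day. The log2 fold change of day 6 over day 4 was 1.43 in KO hosts (standard error 0.34, 95% interval 0.65 to 2.21, adjusted p = 0.0637 from limma) and 1.11 in WT hosts (standard error 0.34, 95% interval 0.33 to 1.89, adjusted p = 0.119 from limma). Neither passed over all genes. Both WT arrays of day 4 were below background and KO replicate 2 of day 4 was above it by less than 1 unit. In WT hosts the mean of the day 6 arrays was therefore at least 1.99-fold higher, a bound that leaves out the spread between arrays. The KO difference passed with arrays centred on their medians (1.59, adjusted p = 0.0345), after a filter on dim genes (1.43, adjusted p = 0.045) and when its 3 probe sets were averaged (2.10, adjusted p = 0.0481 from limma). In the other limma settings that kept all arrays and the gene it did not pass, with adjusted p of 0.0509 to 0.113. When a KO array was left out it was 1.08 to 1.78. Between the genotypes, the day 6 difference was 0.08, with a 95% interval of -0.71 to 0.86.

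The other Icos probe sets were higher at day 6 as well, but were less even. Signals of the second were 113.5 and 144.4 in KO and 159.2 and 162.2 in WT tumours at day 6, against 10.5 and 23.4 in KO and 43.3 and 11.4 in WT tumours at day 4, which placed all 4 arrays of day 6 above background and all 4 of day 4 under it. Its log2 fold changes were 2.16 in KO and 2.13 in WT hosts (adjusted p = 0.0691 and 0.0716 from limma, over 45101 probe sets). As a bound of the same kind, the mean of the day 6 arrays was at least 1.32-fold higher in each. The third had 134.4 and 139.1 in KO and 179.4 and 21.0 in WT tumours at day 6, against 5.4 and 9.3 in KO and 12.7 and 77.9 in WT tumours at day 4. In WT hosts it overlapped between the days, and the days separated on it in KO hosts alone.

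**Figure D2:**
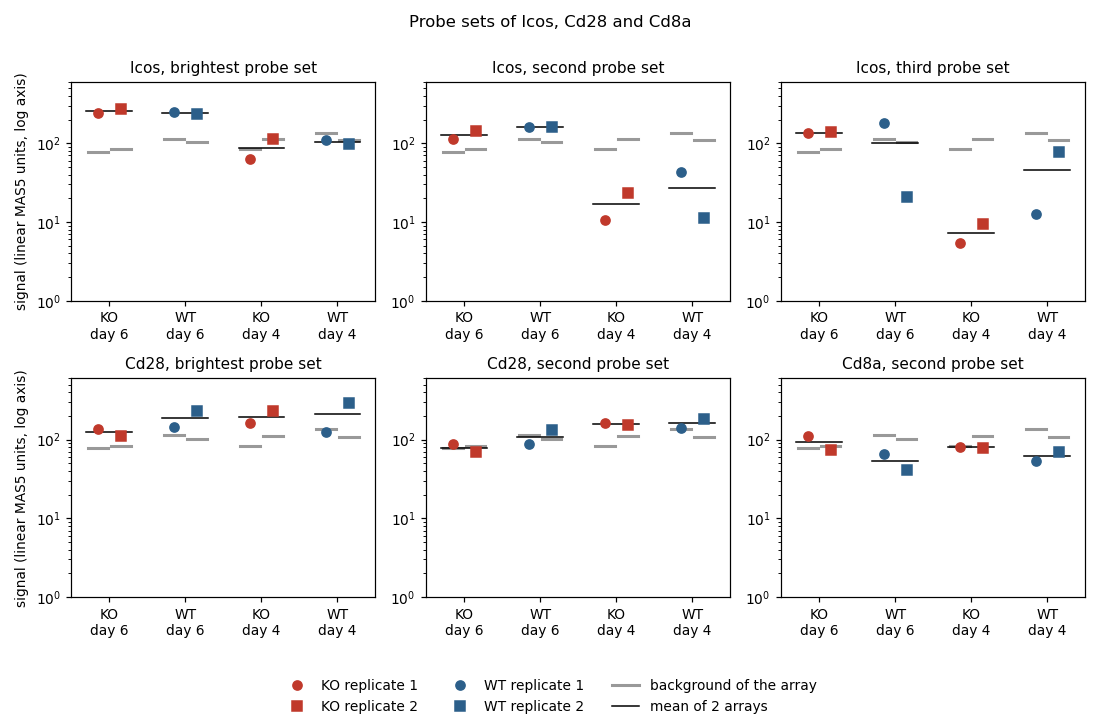
Signals of the 3 probe sets of Icos, both probe sets of Cd28 and the second probe set of Cd8a on every array (linear MAS5 units, logarithmic axis; black lines are means of 2 arrays and grey lines the background of each array). On the brightest and the second set of Icos the arrays of day 6 lie above those of day 4, whereas on the third WT day 6 replicate 2 lies at 21.0.

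Cd28, the receptor for CD80 and CD86, had signals of 136.6 and 112.0 in KO and 144.6 and 227.8 in WT tumours at day 6, against 164.5 and 227.6 in KO and 125.7 and 292.5 in WT tumours at day 4. Both KO arrays of day 6 were below both of their WT counterparts and below both KO arrays of day 4. The spread within WT groups was wide, with replicate 2 the higher array at each day. KO over WT at day 6 gave a log2 fold change of -0.50 (95% interval -1.50 to 0.49, adjusted p = 0.897 from limma), and that of day 6 over day 4 was -0.59 in KO and -0.08 in WT hosts (adjusted p = 0.494 and 0.949 from limma). The second probe set had 88.4 and 69.0 in KO and 87.5 and 130.8 in WT tumours at day 6, against 160.8 and 153.9 in KO and 140.1 and 181.9 in WT tumours at day 4. On it the days did not overlap, with day 6 the lower one, as for 9.7% of all genes by their brightest probe set, and the opposite order to that of Icos, Cd3d and Cd3g.

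Foxp3 had signals of 108.5 and 56.5 in KO and 133.2 and 123.6 in WT tumours at day 6, against 86.7 and 113.5 in KO and 77.1 and 78.4 in WT tumours at day 4. KO arrays were thus below WT arrays at day 6 and above them at day 4, all within a narrow band around the background. The log2 fold change of KO over WT was -0.60 at day 6 and 0.30 at day 4 (standard error 0.39 each, adjusted p = 0.875 and 0.955 from limma). The difference between them, -0.90 (standard error 0.55, 95% interval -2.16 to 0.36, adjusted p = 0.985 from limma), did not pass. Both WT arrays of day 4 were below background, so the day 4 value gives no fold. KO day 6 replicate 2, the array rich in Acta1 and Krt10, was the lowest of all for Foxp3, and without it the day 6 difference was -0.21. The part of skin and muscle RNA in this was not tested.

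Cd8a was read by 5 probe sets, whose orders of the groups differed. The brightest had signals of 144.2 and 155.2 in KO and 200.8 and 154.5 in WT tumours at day 6, against 123.2 and 169.5 in KO and 107.2 and 216.9 in WT tumours at day 4. The groups overlapped in every comparison, and the array's design marks this set as one whose probes can bind other transcripts. The log2 fold change of KO over WT was -0.22 at day 6 and -0.08 at day 4 (adjusted p = 0.952 and 0.991 from limma). The second had 111.4 and 72.9 in KO and 65.8 and 41.6 in WT tumours at day 6, against 81.3 and 77.8 in KO and 52.9 and 69.6 in WT tumours at day 4. On it both KO arrays were above both WT arrays at each day (adjusted p = 0.898 and 0.982 from limma, over 45101 probe sets), but it exceeded background on 1 array only, and no fold is given. The remaining 3 probe sets were above background on 1 array between them, with 129.8 in WT day 6 replicate 1.

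Cd8b1, the beta chain that cytotoxic T cells carry and that Cd8a-positive dendritic cells lack, had 61.1 and 23.5 in KO and 53.2 and 9.9 in WT tumours at day 6, against 47.3 and 49.2 in KO and 9.0 and 8.9 in WT tumours at day 4. The 2 genotypes separated at day 4, but every value was under the background of its array. Cd4 stayed between 16.2 and 35.0 on its brighter probe set and between 1.3 and 23.9 on the other, also below background throughout. Signals of helper and cytotoxic T cells were therefore not detectable from Cd4 and Cd8b1 on these arrays, which does not show that the cells were absent.

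Between KO and WT tumours, 0 of the 9 genes passed limma's test at day 6 and 0 at day 4, against 0.011% of all 18194 genes called at each day. At an unadjusted p under 0.05 the count was 0 at day 6 and 1 at day 4, Cd8b1, under background. Over both days 0 of 9 passed, beside 0.022% of all genes, and 0 of 9 passed for the difference between the KO effects, beside 0.0% of all genes, 851 of which had an unadjusted p under 0.05. Arrays of KO and WT did not overlap for 3 of 9 genes at day 6 (Cd4, Cd28 and Foxp3, all lower in KO), where 36.1% of all genes did not overlap. At day 4 they did not overlap for 4 of 9 (Cd8b1 and Foxp3 higher, Cd3d and Cd4 lower), beside 35.6% of all genes. Cd4 and Cd8b1 were under background on every array. The median log2 fold change of the 9 genes was -0.22 at day 6 and -0.08 at day 4, and that of all genes -0.02 and 0.00. With 2 arrays against 2, an exact permutation test (two-sided) cannot give a p under 0.33.

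Between the days, 0 of 9 genes passed in KO hosts, where 2.87% of all genes were called, and 0 of 9 in WT hosts, where 2.97% were. An unadjusted p under 0.05 was reached by 2 genes in KO hosts (Icos and Cd3d) and by 1 in WT hosts (Icos). In KO hosts both arrays of day 6 exceeded both of day 4 for 4 of 9 genes, beside 25.6% of all genes. These were Cd3d, Cd3e, Cd3g and Icos. In WT hosts this held for 5 of 9 (Cd3d, Cd3g, Cd8b1, Icos and Foxp3), beside 23.9%. Both counts include genes near background. Cd3e was above background on 1 array, and Cd8b1 was under it on every array. In WT hosts Cd8b1 had 53.2 and 9.9 at day 6 against 9.0 and 8.9 at day 4. Cd28 alone was lower on both arrays of day 6 in KO hosts, beside 29.3% of all genes, and 0 of 9 were in WT hosts, beside 24.8%. For Cd3d, Cd3g and Icos, 3 of 9 genes, all 4 arrays of day 6 exceeded all 4 of day 4, beside 11.5% of all genes. The median log2 fold change of the 9 genes was 0.04 in KO and 0.62 in WT hosts, against -0.03 and -0.02 for all genes. The WT median rested on single arrays, with 0.22 without WT day 6 replicate 1 and 1.15 without WT day 6 replicate 2. Every array enters both kinds of comparison, so these counts are not independent of each other. Xist and Eif2s3y separated the days on all 8 arrays, and the day and the host's sex cannot be told apart in any of these differences.

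**Figure D3:**
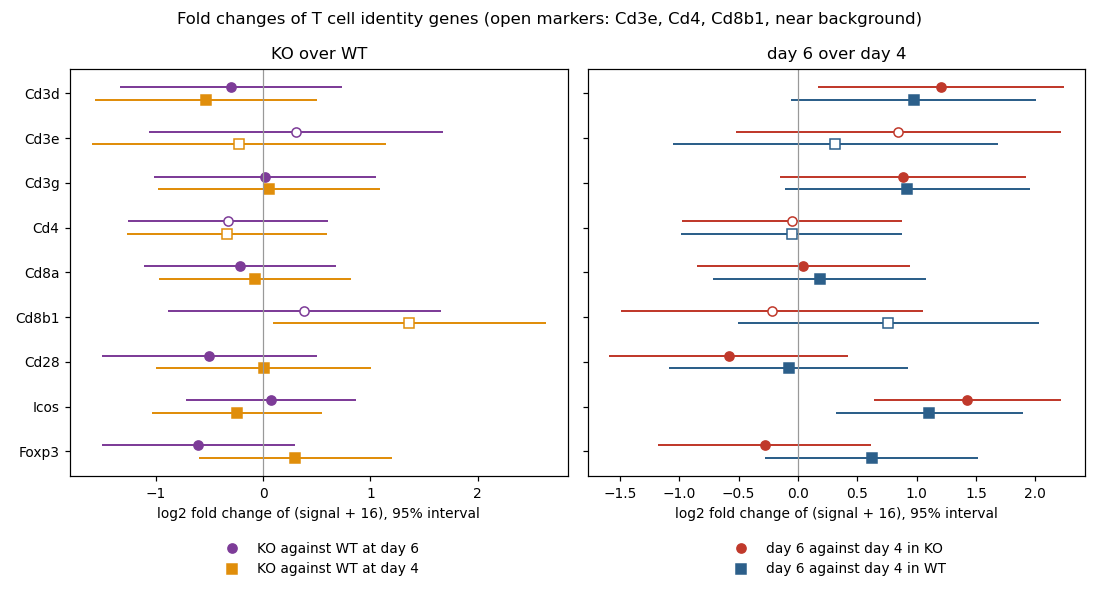
Log2 fold changes of (signal + 16) for 9 T cell identity genes with 95% intervals from limma, KO over WT at day 6 and day 4 on the left and day 6 over day 4 in KO and WT hosts on the right. Intervals of Icos lie above 0 in both genotypes and that of Cd3d in KO hosts, and open markers show Cd3e, Cd4 and Cd8b1, which were near background.

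Genes that work beside the T cell receptor gave no call. Of 30 listed genes of the receptor complex and its proximal signalling, 24 were measured, and 0 passed limma's test between genotypes or days. Over all genes, 0.011% were called between genotypes at each day, and 2.87% in KO and 2.97% in WT hosts between the days. Tcra, a chain of the receptor itself, had 25.8 and 15.9 in KO and 5.1 and 36.2 in WT tumours at day 6, and 1.3 and 1.9 in KO and 40.3 and 29.1 in WT tumours at day 4, all near the low end of the array. Lcp2, the adaptor SLP-76, which myeloid cells use as well, had 2051.7 and 1279.7 in KO and 1986.6 and 1630.9 in WT tumours at day 6, against 863.8 and 823.9 in KO and 1034.2 and 1565.7 in WT tumours at day 4. All arrays of day 6 except KO replicate 2 were above all of day 4. Its log2 fold change of day 6 over day 4 was 0.93 in KO and 0.49 in WT hosts (adjusted p = 0.0898 and 0.338 from limma).

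Of 15 listed surface markers and adaptors of T cells, 14 were measured. Of these 1 passed, Il2rb between the days in KO hosts, beside 2.87% of all genes. Il2rb encodes the beta chain of the receptor for interleukin-2 and interleukin-15, which T cells and NK cells share. Its signals were 243.3 and 156.4 in KO and 333.7 and 219.9 in WT tumours at day 6, against 38.7 and 14.9 in KO and 122.2 and 74.7 in WT tumours at day 4. Day 6 was above day 4 on every array, and KO was below WT without overlap at day 4 alone. In KO hosts the difference was 2.36 on the log2 scale (standard error 0.45, adjusted p = 0.0394), and in WT hosts 1.36 (adjusted p = 0.138 from limma). All 4 arrays of day 4 were under their background, which leaves bounds of at least 2.01-fold in KO and 2.23-fold in WT hosts. The KO call was lost without WT day 6 replicate 1 and without each of the 4 KO arrays, with adjusted p up to 0.269. At day 6, 12 of the 14 genes of this list were lower in KO and 2 higher, with a median of -0.68. The genes share the same arrays, so they are not independent cases. By array the genotypes overlapped, since the list's summed signals at day 6 were 8899.1 and 10949.5 in KO and 10902.8 and 12117.9 in WT tumours. All 8 pan-leukocyte genes and 8 of 9 NK cell genes were also lower in KO at day 6, with medians of -0.32 and -0.66, while 9 of 10 skin genes and 10 of 10 skeletal muscle genes were higher, and the part of any of these in the surface markers was not tested. The summed signals of the pan-leukocyte genes were 42878.3 and 55373.8 in KO and 55309.9 and 61393.7 in WT tumours at day 6, and 43703.8 and 44770.6 in KO and 47549.2 and 60626.7 in WT tumours at day 4. Those of the skeletal muscle genes were 1050.0 and 53505.9 in KO and 1146.6 and 1202.2 in WT tumours at day 6, and 1125.7 and 22760.0 in KO and 1006.0 and 137424.9 in WT tumours at day 4. The skin genes summed to 4574.7 and 42460.5 in KO and 4980.7 and 5908.1 in WT tumours at day 6. For skin and for muscle alike, KO replicate 2 was the high array of day 6, and KO replicate 1 lay below both WT arrays.

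The ligands and relatives of Cd28 and Icos gave 6 genes, of which 0 passed in any of the 4 comparisons. Of all genes, 0.011% to 2.97% were called in these. Ctla4, the inhibitory relative of Cd28, had 163.5 and 173.3 in KO and 260.8 and 72.7 in WT tumours at day 6, against 38.9 and 36.3 in KO and 91.2 and 35.2 in WT tumours at day 4. In KO hosts the days were far apart, by 1.78 on the log2 scale (standard error 0.58, adjusted p = 0.13 from limma, a bound of at least 1.73-fold, since day 4 was under background), and in WT hosts they overlapped. Cd86, a ligand of Cd28 on antigen-presenting cells, had 945.6 and 708.4 in KO and 1037.0 and 1010.2 in WT tumours at day 6, against 541.1 and 473.9 in KO and 699.8 and 720.7 in WT tumours at day 4. At each day both KO arrays were below both WT arrays, with log2 fold changes of -0.32 and -0.48 (adjusted p = 0.862 and 0.703 from limma). Icosl, the ligand of Icos, stayed between 281.0 and 442.1 on all 8 arrays.

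Of 15 listed regulatory T cell genes other than Foxp3, 14 were measured. In KO hosts 1 passed between the days, beside 2.87% of all genes, and in WT hosts 1, beside 2.97%, and both fell. The list itself was mixed, with 8 genes higher and 6 lower at day 6 in KO hosts, and 6 higher and 8 lower in WT hosts. Higher in KO hosts were for instance Tnfrsf4, by 0.99 on the log2 scale (adjusted p = 0.0677 from limma), and Ctla4, which was given above. Tnfrsf9, the costimulatory receptor 4-1BB, had 3051.4 and 2891.6 in KO and 2789.3 and 4610.7 in WT tumours at day 6, against 11979.0 and 11392.5 in KO and 17693.6 and 7447.8 in WT tumours at day 4. Its log2 fold change was -1.97 in KO hosts (adjusted p = 0.0364) and -1.67 in WT hosts (adjusted p = 0.0503 from limma), and the KO call was lost without any 1 of the 4 KO arrays. Nt5e, the ecto-enzyme CD73, fell by 0.78 on the log2 scale in WT hosts (adjusted p = 0.0373 from limma) and lost its call whichever array was left out, with adjusted p of 0.0536 to 0.202. Of 13 measured lineage transcription factors 0 passed, where at most 2.97% of all genes were called in any comparison. Gata3, a factor of T helper and innate lymphoid cells that the epidermis also expresses, had 139.6 and 313.9 in KO and 62.7 and 95 in WT tumours at day 6, against 53.5 and 47.6 in KO and 107.2 and 86.8 in WT tumours at day 4, and its highest array was the one rich in Krt10.

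NK cell genes are given because cytotoxic effectors are shared between NK cells and T cells. Of 9 measured, Gzmb, which encodes granzyme B, passed between the days in both genotypes and Gzma in KO hosts. That is 1 of 9 in WT hosts, beside 2.97% of all genes, and 2 of 9 in KO hosts, beside 2.87%. All 9 were higher at day 6 in WT hosts, but in KO hosts 6 were higher and 3 lower. Klrd1 (-0.74) and Klra8 (-0.88 on the log2 scale) were among the lower ones (adjusted p = 0.182 and 0.326 from limma). Gzmb had 1739.6 and 1290.2 in KO and 1753.9 and 1274.6 in WT tumours at day 6, against 143.8 and 90 in KO and 247.0 and 293.8 in WT tumours at day 4. Its log2 fold change was 3.54 in KO (standard error 0.28, adjusted p = 0.00267) and 2.40 in WT hosts (standard error 0.28, adjusted p = 0.0189 from limma). The KO call was lost without KO day 4 replicate 2 (adjusted p = 0.0787) and in 1 of 14 settings that left out no single array, the fit without a trend (adjusted p = 0.0687). The WT call was lost without WT day 6 replicate 1, without each of the KO arrays of day 4 (adjusted p up to 0.141) and in 3 of those 14 settings (adjusted p up to 0.115). Gzma, which encodes granzyme A, had 818.1 and 429.6 in KO and 762.8 and 566.2 in WT tumours at day 6, against 129.6 and 157.9 in KO and 270.8 and 589.2 in WT tumours at day 4. In WT hosts the days overlapped. In KO hosts they did not, by 1.94 on the log2 scale (adjusted p = 0.0498 from limma), a call that was kept in 2 of 8 fits that left out 1 array, those without a WT day 4 array (adjusted p up to 0.269 in the others), and in 7 of the 14 other settings. Of 7 measured genes of Cd8a-positive dendritic cells, 6 or 7 were above background on every array, and their summed signals were 7774.6 and 9316.1 in KO and 9739.8 and 10464.9 in WT tumours at day 6, and 7604.4 and 8325.5 in KO and 10170.0 and 12967.9 in WT tumours at day 4. Cd24a alone, with 4776.6 to 7966.8, made up much of these sums, and Tlr3, a gene targeted in KO hosts, is in the list. Xcr1 of the same list had only 11.0 to 180.6. Whether such dendritic cells differed between the genotypes was not tested.

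**Figure D4:**
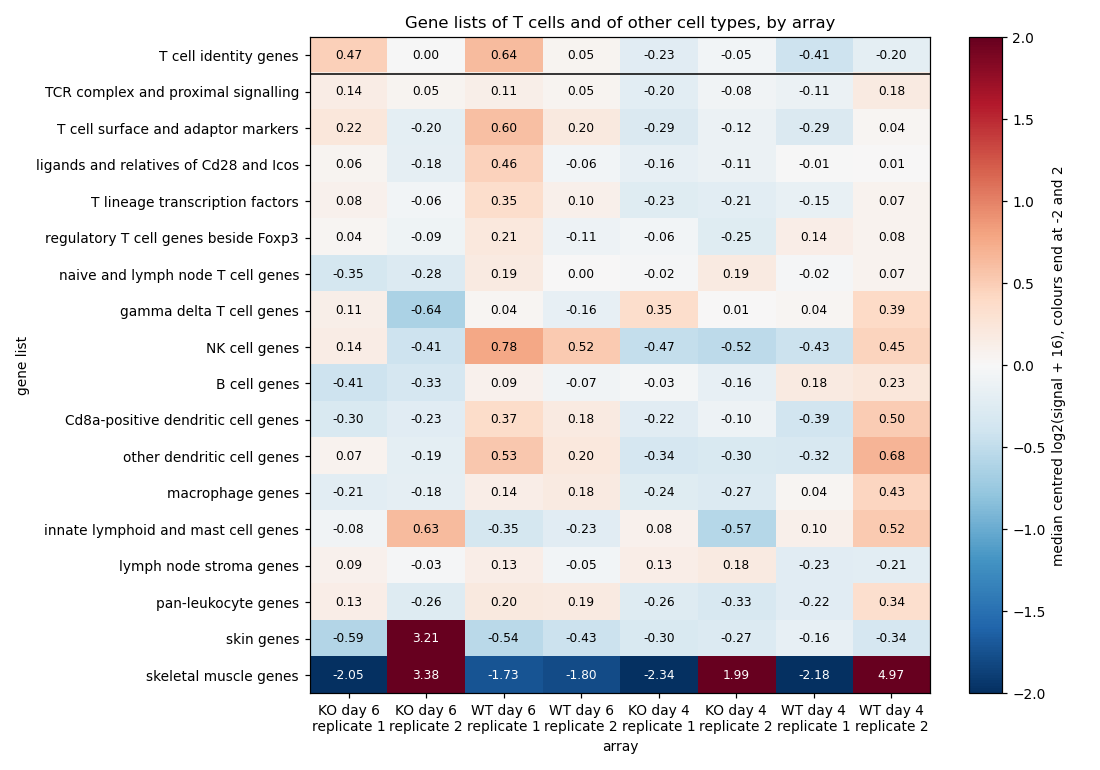
Median of log2(signal + 16), centred on each gene's mean over the 8 arrays, for T cell identity genes (top row) and for lists of T cell and other cell type genes (rows) on each array (columns), with colours that end at -2 and 2. The T cell identity genes were at 0.47 in KO day 6 replicate 1 and at 0.64 in WT day 6 replicate 1, their highest arrays, and skeletal muscle genes reached 4.97 in WT day 4 replicate 2.

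Members that were above background on at least 4 arrays, 6 genes, were averaged into 1 profile, and 13031 other genes of sufficient signal were ranked by their correlation with it over the 8 arrays. The most alike were Snx20 (Pearson r = 0.99), Slc10a3 (0.98), Nrm (0.98), Tmem14c (0.97) and Cenpx (0.97). Snx20, a sorting nexin of leukocytes, had signals of 460.0 and 406.9 in KO and 595.5 and 476.9 in WT tumours at day 6, against 304.0 and 376.6 in KO and 301.0 and 409.7 in WT tumours at day 4. The profile is an average of unlike genes, since the 6 correlated with each other between -0.40 (Cd3d and Cd28) and 0.85 (Cd3d and Cd3g). These values describe 8 arrays that share groups, and carry no test.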

How the data were processed

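RNA of MOPC tumours had been hybridised to 8 Affymetrix mouse arrays. The authors deposited 1 signal intensity for each of 45101 probe sets, on a linear scale. The submitters' processing notes name MAS5, without a version. Of the probe sets, 34958 had 1 gene symbol, 932 several and 9211 none in the platform annotation. Probe sets with several symbols or none were not named. Each gene was represented by the probe set with the highest mean signal. Log2(signal + 16) of the 4 groups entered 1 limma model (version 3.58.1, R 4.3.3) with a trend on the mean and no filter on low values. The threshold for a call was 0.05 after Benjamini-Hochberg adjustment over all genes. Where both arrays of a group were at or below background, the fold was given as a bound, from mean log2 signals with each such array at its background. Such a bound allows for the dim values only and not for the spread between arrays. The fit was also run on simulated data with independent noise for each gene and array. Such data hold no differences that many genes of an array share, so the run cannot show how the fit handles them. Spearman correlations between the 2 arrays of a group were 0.941 to 0.953, and the number of arrays limits the precision.

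Members and gene lists were chosen with earlier results of these data known. All 10 members were to be named, with at most 4 genes of a list, those of smallest p in the comparison described, and the 5 genes most alike. Acta1, Krt10, Xist, Eif2s3y and the targeted receptors were named as checks. Alternatives were 2 scalings, 2 pseudocounts, 2 filters, a floor, 2 rules for probe sets, other model settings, a replicate block, leaving out each array and the methods' t-test. Fits of all probe sets singly, without 3 arrays rich in Acta1 and with crossed replicate numbers were chosen after seeing the data. Whether same-numbered arrays deviate together was checked by the correlation of their differences (-0.11 to 0.28), and the numbers were not taken to pair the samples.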

Additional observations from a re-analysis of the deposited data

Results flagged for a closer look

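Foxp3 was lower in both KO arrays than in both WT arrays at day 6 and higher in both at day 4, and was singled out for this opposite order. The log2 fold change of KO over WT was -0.60 at day 6 and 0.30 at day 4, a difference of -0.902 (adjusted p = 0.985 from limma), so the difference did not pass. An opposite order without overlap at the 2 days was shown by 895 of 18194 genes, 4.92%. Leaving out 1 array at a time gave differences of -1.29 to -0.51. Signals lay between 56.5 and 133.2, near the background of the arrays, and both WT arrays of day 4 were below it. Groups of 2 arrays were not tested for outliers.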

How the results depend on the processing

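None of the 9 genes passed in the 6 comparisons as fitted, and in KO hosts between the days the count became 1 (Icos) with centring on the median, with a filter at the 40th percentile and with the mean of all probe sets. That filter left 6 of the 9 genes, whose median log2 fold change was 0.46, and a filter at the 60th percentile left none. The methods' t-test at p of 0.05 or less gave 2 genes between KO and WT at day 4 (Cd3d and Cd8b1) and 2 between the days in WT hosts (Icos and Foxp3), and 0 after Benjamini-Hochberg adjustment. Directions turned in fold changes near 0: Cd8a in KO against WT at day 4 under quantile normalization (0.00299), centring (0.00267), the mean of all probe sets (0.24) and without the 3 arrays rich in Acta1 (0.18), Cd8a between the days in KO hosts with the mean of all probe sets (-0.24), Cd28 between the days in WT hosts under quantile normalization (0.0579), centring (0.11) and without those 3 arrays (0.48), Cd28 in KO against WT at day 4 with a pseudocount of 64 (-0.0107) and the mean of all probe sets (-0.00801), Cd3g in KO against WT at day 6 with a pseudocount of 64 (-0.00384), and, without those 3 arrays, Icos in KO against WT at day 6 (-0.00561). Foxp3 between the days in KO hosts, which was further from 0 as fitted (-0.28), also turned without those 3 arrays (0.28). Centring moved the median of all genes between the days by 0.17 in KO and 0.18 in WT hosts.

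When 1 array was left out at a time, the median of the 9 genes ranged from -0.39 to 0.11 in KO against WT at day 6, from -0.46 to 0.31 at day 4, and from 0.22 to 1.15 between the days in WT hosts. Single genes that turned direction in KO against WT were Cd3d (-0.94 to 0.34), Cd3g (-0.55 to 0.58) and Icos (-0.00561 to 0.16) at day 6, and Cd28 (-0.56 to 0.57) and Cd8a (-0.54 to 0.38) at day 4. Between the days they were Cd8a (-0.16 to 0.25) and Foxp3 (-0.67 to 0.11) in KO hosts, and Cd28 (-0.64 to 0.48) and Cd8a (-0.28 to 0.64) in WT hosts. Of 22 fold changes, 9 turned without 1 array and 7 under another alternative, and the cause was not tested. The difference of Icos between the days stayed positive in both genotypes under all alternatives that kept the gene, which the filter at the 60th percentile did not.

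The replicate number as a block changed no call of the 9 genes, with 0 in all 6 comparisons, and Icos in KO hosts had an adjusted p of 0.0946. All genes called between the days came to 202 in KO and 190 in WT hosts with the block, against 522 and 540 without it. The crossed pairing, in which the numbers of WT day 6 were exchanged, called 594 and 657. Counts of all genes called also moved with centring (1013 in KO and 1399 in WT hosts), with a filter at the 60th percentile (875 and 882), with the methods' t-test (3060 and 1736, and 3 and 1 after adjustment), without a trend (3 and 3), with a floor (186 and 331), with the mean of all probe sets (198 and 307), with only the groups compared (1152 and 1) and without the 3 arrays rich in Acta1 (31 and 1), and from 1 to 869 in KO and from 1 to 655 in WT hosts when 1 array was left out. Between KO and WT the count over all genes ranged from 0 to 24 at day 6 and from 0 to 9 at day 4 in those fits, against 2 at each day. Depth here is signal over background: Cd3e, Cd4 and Cd8b1 were near it, and with 2 arrays a group a gene without a call may still differ.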

Other observations

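Of 12 listed gamma delta T cell genes 4 were measured, and 1 was called between the days, in KO hosts, beside 2.87% of all genes. The list did not fall with it, since Sox13 (0.29), Il17a (0.20) and Blk (-0.08 on the log2 scale) changed less in KO hosts, and the list's median was 0.06. Cd163l1, a scavenger receptor that gamma delta T cells carry, had signals of 45.0 and 42.5 in KO and 52.4 and 25.3 in WT tumours at day 6, against 379.9 and 235.2 in KO and 146.6 and 107.8 in WT tumours at day 4. It was lower on every array of day 6, and all 4 of them were under background. In KO hosts it fell by 2.40 on the log2 scale (adjusted p = 0.0346 from limma), with a bound of at least 3.68-fold for the mean of the day 4 arrays. The call was lost without each of the 4 KO arrays, and the fits that left out 1 array gave -2.73 to -2.07. The day and the sex of the host cannot be told apart here either.

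Of 8 listed genes of naive T cells and lymph node homing 6 were measured. In KO hosts 1 of the 6 was called between the days, beside 2.87% of all genes. It was Klf2, a transcription factor that keeps T cells quiescent and that endothelium and macrophages also express, and it was lower at day 6. Its signals were 1023.1 and 1121.2 in KO and 1110.4 and 1049.6 in WT tumours at day 6, against 2568.9 and 1746.1 in KO and 1603.8 and 1957.9 in WT tumours at day 4. The days did not overlap in either genotype, and the KO difference was -0.97 on the log2 scale (adjusted p = 0.044 from limma). It kept the call in 2 of 8 fits that left out 1 array, those without a WT day 4 array, and in the others the adjusted p reached 0.226. In the same list Ccr7, the receptor that guides naive T cells and mature dendritic cells to lymph nodes, had 262.4 and 89.0 in KO and 645.9 and 443.2 in WT tumours at day 6, against 275.7 and 315.2 in KO and 492.1 and 570.8 in WT tumours at day 4. Both KO arrays were below both WT arrays at each day, and the difference at day 6 was -1.69 on the log2 scale (adjusted p = 0.733 from limma).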
